A study of Homo sapiens with 12 samples.

Results

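Genes of cholesterol synthesis and genes linked to the sterol regulatory element binding proteins (SREBPs) were described in 3 human leukemia cell lines. Besides enzymes, they include regulators of the SREBPs and genes of sterol transport and efflux, which are not all switched on by SREBPs. The set holds 34 genes, taken by symbol from the 58395 genes of a read count table, and each symbol matched 1 gene. K562 is an established chronic myeloid leukemia line in blast crisis. From K562 comes K/VP.5, a cloned subline resistant to etoposide, an anticancer poison of topoisomerase II. K/VP.5/edit-3 (edit-3 in what follows) is 1 clone of K/VP.5 whose TOP2A gene was changed with Cas9 protein, a guide and a short single-stranded DNA template. The edit lies at the 5′ splice site between exon 19 and intron 19. Per the labels, 0.5 µM etoposide went into the medium every other week. That statement names all 3 lines, and whether K562 also received the drug is not given beyond it. Each line had 4 libraries, and edit-3 being a single clone, clone and edit cannot be told apart.

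Cells regulate cholesterol synthesis by sensing cholesterol in the endoplasmic reticulum. When sterol is scarce, the escort protein SCAP carries the SREBPs to the Golgi, where proteases free their transcription factor part. When sterol is plentiful, INSIG proteins hold SCAP back. The freed factors switch on the enzymes from acetyl-CoA to cholesterol, the enzymes of fatty acid synthesis and INSIG1 itself. The same mevalonate route supplies the farnesyl and geranylgeranyl groups that anchor small GTPases to membranes.

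The promoter sequences come first, because some genes that moved widely from library to library within a line are compared below with one that hardly moved. RefSeq promoter windows on GRCh38.p14, from 250 bases before to 50 after a gene's start, matched 29 of the 34 genes, with 42 windows in all. FDFT1, SQLE, FASN, ACAT2 and ABCG1 had no match. Both strands were searched for 4 motifs: a sterol regulatory element (TCACNCCAC), its core (CACCCCAC, which overlaps it), the CCAAT box and the E-box CACGTG. In the stretches below, written 5′ to 3′ on the gene's strand up to the last base before the start, capitals mark a sterol regulatory element, a CCAAT box (ATTGG on the other strand) or an E-box. SREBF2, the gene of SREBP-2, is shown for its sterol regulatory element (chr22:41832955-41833104, plus strand). HMGCS1 (chr5:43313413-43313612, minus strand), MVD (chr16:88663092-88663271, minus strand), INSIG1 (chr7:155297678-155297877, plus strand) and STARD4 (chr5:111512536-111512735, minus strand) are shown as genes with a wide spread within lines. SCAP (chr3:47475942-47476141, minus strand) is shown as the gene with the narrowest.
SREBF2: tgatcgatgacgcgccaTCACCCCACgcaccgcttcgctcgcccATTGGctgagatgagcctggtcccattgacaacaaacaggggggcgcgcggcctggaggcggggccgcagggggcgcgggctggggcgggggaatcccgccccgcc
HMGCS1: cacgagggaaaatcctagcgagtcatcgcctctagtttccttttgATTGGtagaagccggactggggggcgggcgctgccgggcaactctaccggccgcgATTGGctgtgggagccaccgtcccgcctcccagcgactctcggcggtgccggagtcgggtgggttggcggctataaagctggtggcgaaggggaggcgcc
MVD: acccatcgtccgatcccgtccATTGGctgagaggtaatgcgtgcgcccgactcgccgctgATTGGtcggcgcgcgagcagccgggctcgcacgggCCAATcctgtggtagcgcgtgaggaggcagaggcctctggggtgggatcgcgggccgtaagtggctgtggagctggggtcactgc
INSIG1: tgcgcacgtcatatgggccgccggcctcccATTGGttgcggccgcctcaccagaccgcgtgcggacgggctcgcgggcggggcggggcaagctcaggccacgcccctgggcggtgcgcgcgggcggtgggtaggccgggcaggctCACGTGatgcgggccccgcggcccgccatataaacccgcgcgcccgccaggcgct
STARD4: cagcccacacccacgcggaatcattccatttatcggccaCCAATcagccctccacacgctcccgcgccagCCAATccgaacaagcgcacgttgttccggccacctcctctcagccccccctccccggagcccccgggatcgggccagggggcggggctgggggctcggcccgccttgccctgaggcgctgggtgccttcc
SCAP: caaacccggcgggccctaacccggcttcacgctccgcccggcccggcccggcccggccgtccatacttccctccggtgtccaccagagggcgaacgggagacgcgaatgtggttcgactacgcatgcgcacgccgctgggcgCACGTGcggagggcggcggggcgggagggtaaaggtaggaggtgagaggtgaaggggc

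SREBF2 was the 1 gene of the 29 with the full sterol regulatory element, which began 133 bases before its start. The element was in the windows of 1.39% of all 27305 genes with a RefSeq window. ABCA1, a cholesterol efflux pump, held the core without the full element. Counted within a full element or outside one, the core was in 2 of the 29 genes (6.90%) and in 3.39% of all genes. The CCAAT box was present in 20 of the 29 genes (69.0%), against 39.7% of all genes with a window and 42.4% of those also tested for expression. At least 2 CCAAT boxes stood in 31.0% of the set's windows and in 10.8% of all windows. MVD had CCAAT boxes at 159, 120 and 85 bases before the start, HMGCS1 at 155 and 100, and STARD4 at 161 and 130. INSIG1 had 1 at 170 bases and an E-box at 55 bases, and SCAP had an E-box at 58 bases and no CCAAT box. The printed genes were picked by hand, and others went against this contrast. FADS1, at the 96.9 percentile of within-line spread among all tested genes and above MVD at 96.8, had no CCAAT box. EBP, NSDHL and FADS2, at 38.4, 43.5 and 27.8, each had at least 1. NPC1L1 (96.9, with a CCAAT box) and SREBF1 (17.0, without) went with it. NPC1L1 had only 38, 64 and 131 reads in K562, K/VP.5 and edit-3, so counting error adds to its spread. The E-box was in 5 of the 29 genes (17.2%), against 8.77% of all genes and 12.6% of those also tested for expression. These matches are letters in a window and were not measured as binding sites. A missing match is likewise not a missing site, because only these letters within these windows were searched.

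The 12 libraries held 25.3 M to 37.1 M counted reads, with a median of 29.6 M, and 95.2% to 96.2% of them belonged to protein-coding and 0.712% to 1.22% to mitochondrial genes. The level of a gene is its CPM, the read count scaled by library size and TMM factor. Counts per gene do not show the edited splice site, so they checked nothing about the edit. All 9 markers of an erythroid and myeloid leukemia line were detected in each line, among them GATA1 at 277, 196 and 199 CPM in K562, K/VP.5 and edit-3. Markers of other cell types also differed between lines. The summed fibroblast markers (3 genes, none at 0 in a whole line) ran from 6.15 to 11.0 CPM in K562, 209 to 288 CPM in K/VP.5 and 1685 to 2959 CPM in edit-3, nearly all of it COL1A2, while DCN stayed below 0.02 CPM on average. The summed epithelial markers (3 genes, KRT5 at 0) ran from 157 to 175, 147 to 164 and 308 to 352 CPM, and the T and B cell markers (5 genes, MS4A1 at 0) from 40.1 to 81.9, 10.8 to 18.8 and 21.6 to 53.1 CPM. The monocyte markers stayed between 1.03 and 1.93 CPM. Their part in the results below was not tested.

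Of the 34 genes, 32 had enough reads to be tested. ABCG1, a pump that exports sterol to lipoproteins, had 0 reads in all 12 libraries, which at 3 reads as the floor allows up to 0.00825 CPM over all of them. ABCA1 had 12 reads in K562, 16 in K/VP.5 and 18 in edit-3. Per kilobase of exon, the level of FASN, the fatty acid synthase, was the highest of the set in each line, at 575 CPM per kb in K562, 627 in K/VP.5 and 431 in edit-3. INSIG1 followed in K562 and edit-3 at 148 and 157 CPM per kb, and in K/VP.5 HMGCS1 followed at 147 CPM per kb. At the low end of the tested genes, NPC1L1, the sterol importer of the gut surface, had 0.0675, 0.0901 and 0.204 CPM per kb.

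The libraries of a line differed from each other in these genes, and most of the genes moved together. Of the 32 tested genes, 26 had their highest level within K562 in replicate 4, 26 had it within K/VP.5 in replicate 4, and 23 had it within edit-3 in replicate 3. These were 81.2%, 81.2% and 71.9% of the set, against 35.9%, 30.8% and 20.1% of all 18286 tested genes. For 20 of the 32 genes (62.5%) all 3 held at once, which was so for 4.28% of all tested genes. The 3 libraries were picked from these same genes, as those where most were highest. The shares therefore describe the set and are no test. The low end was shared as well: replicate 1 was the lowest library for 17 genes in K562, 17 in K/VP.5 and 21 in edit-3 (53.1%, 53.1% and 65.6%), against 27.6%, 27.0% and 33.4% of all tested genes. In bulk RNA, a change in some of the cells and a change in every cell cannot be told apart. The replicate numbers come from the titles, and nothing in the labels says which libraries shared a culture or a day.

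**Figure D1:**
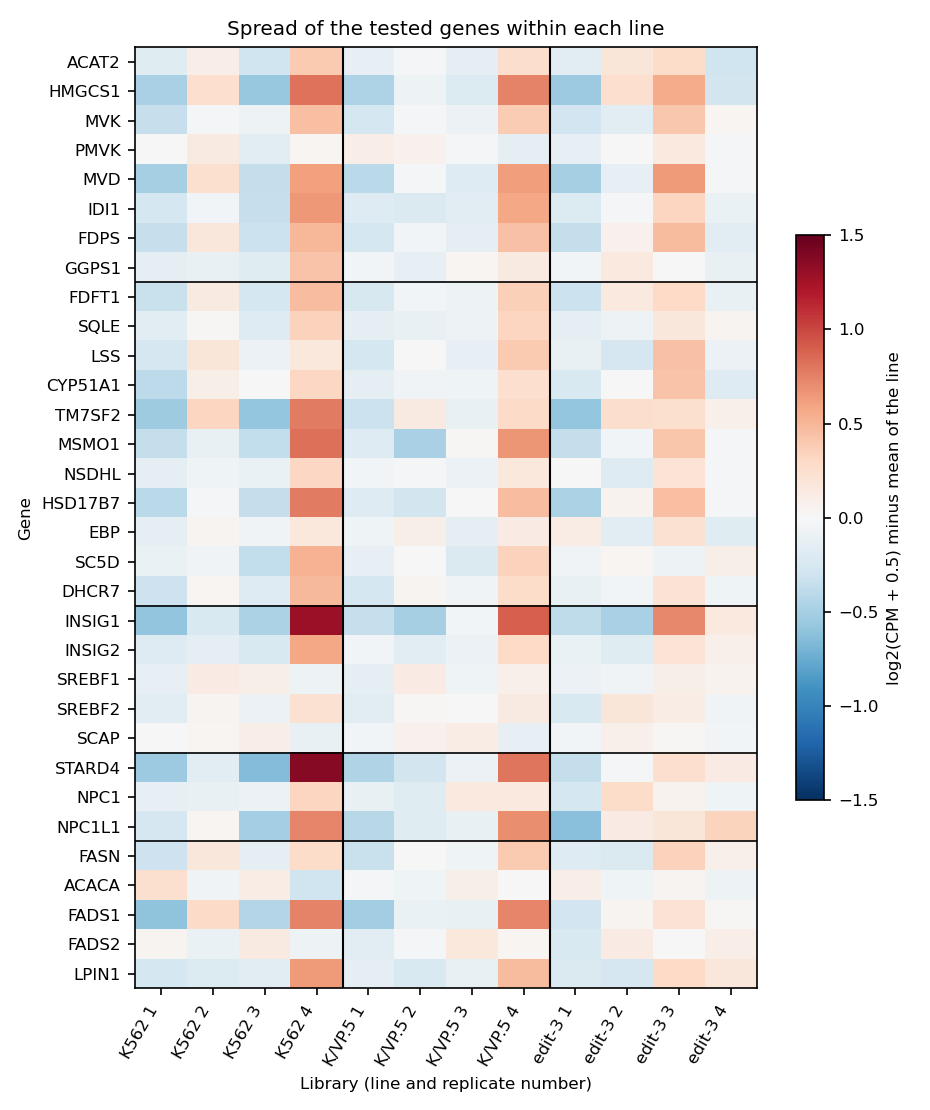
Deviation of each gene's log2(CPM + 0.5) from the mean of its line (colour, log2 units) for the 32 tested genes (rows, grouped by role and split by lines) in the 12 libraries (columns). K562 replicate 4, K/VP.5 replicate 4 and edit-3 replicate 3 are red for most genes, with INSIG1 and STARD4 darkest, while SCAP and SREBF1 stay pale.

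INSIG1 (ENSG00000186480), the sterol-responsive brake on SREBP processing, had the widest spread of the set. Its level was 304, 391, 331 and 1131 CPM in K562 replicates 1 to 4. In K/VP.5 it was 326, 292, 402 and 770 CPM. In edit-3 it was 413, 386, 890 and 599 CPM. The highest library was thus 3.72, 2.63 and 2.31 times the lowest within the 3 lines, and the lines overlapped. Its standard deviation within lines was 0.70 on the log2 scale, at the 99.1 percentile of all tested genes, while its fitted difference between lines was at most 0.35. STARD4, which carries sterol through the cytosol, ran from 34.1 to 47.6 CPM in K562 replicates 1 to 3 and stood at 139 CPM in replicate 4. In K/VP.5 it was 36.9, 41.7, 47.5 and 88.7 CPM, and in edit-3 38.1, 47.9, 58.4 and 53.5 CPM. The highest library was 4.06, 2.41 and 1.53 times the lowest in the 3 lines. STARD4 was at the 98.8 percentile of within-line spread, and HMGCS1, the synthase that makes HMG-CoA, at 98.0.

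The shared pattern ran through the whole route to cholesterol. Among the mevalonate and isoprenoid enzymes, 6 of 8 were highest in the same 3 libraries: ACAT2, HMGCS1, MVK, MVD, IDI1 and FDPS. HMGCS1 reached 808 CPM in K562 replicate 4 against 311 to 546 in the other K562 libraries, 1100 CPM in K/VP.5 replicate 4 against 475 to 623, and 639 CPM in edit-3 replicate 3 against 298 to 519. Among the enzymes from squalene to cholesterol, 8 of 11 were highest there, the exceptions being LSS, TM7SF2 and SC5D. Of the fatty acid and lipid enzymes, FASN, FADS1 and LPIN1 followed the pattern. Of the regulators, INSIG1 and INSIG2 did, and of the transport genes, STARD4 did. Median deviations of the 32 genes from their line means were 0.45, 0.33 and 0.24 on the log2 scale in the 3 libraries, where the medians over all tested genes were 0.0056, 0.010 and 5.0e-04.

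The remaining 12 of the 32 genes stood outside the pattern in at least 1 line. The genes of the 2 SREBPs and their escort were among them: SCAP was at the 8.12 percentile of within-line spread, SREBF1 at 17.0 and SREBF2 at 39.7. SCAP was lowest in K562 replicate 4 and in K/VP.5 replicate 4. ACACA, the acetyl-CoA carboxylase, was also lowest in K562 replicate 4, at 414 CPM against 492 to 602 in the other 3 libraries. PMVK, NPC1 and FADS2 were likewise highest elsewhere in at least 2 lines. Over the set, the median within-line standard deviation was 0.27 on the log2 scale, against 0.18 over all tested genes, and 12 of the 32 genes lay above the 90th percentile. CCAAT boxes were in the windows of 12 of the 16 genes with the shared pattern and a window, and of 8 of the other 12 tested genes with a window.

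Depth did not rank these libraries alike. K562 replicate 4 was the shallowest of its line at 25.3 M reads, K/VP.5 replicate 4 the deepest at 37.1 M, and edit-3 replicate 3 the shallowest of its line at 27.5 M. Their mitochondrial shares were 0.930%, 1.18% and 0.831%, the highest of K562, the highest of K/VP.5 and the third of edit-3. The libraries also took a large part of all genes' highest values in K562 and K/VP.5. Their part in the pattern was not tested. Of 53 other tested genes of sterol and lipid metabolism, 7 (13.2%) had the same 3 highest libraries. Among these was SCD, the stearoyl-CoA desaturase, at 3437 CPM in K562 replicate 4 against 2107 to 2792 in the rest, 3162 CPM in K/VP.5 replicate 4 against 1970 to 2346, and 1994 CPM in edit-3 replicate 3 against 1348 to 1780.

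**Figure D2:**
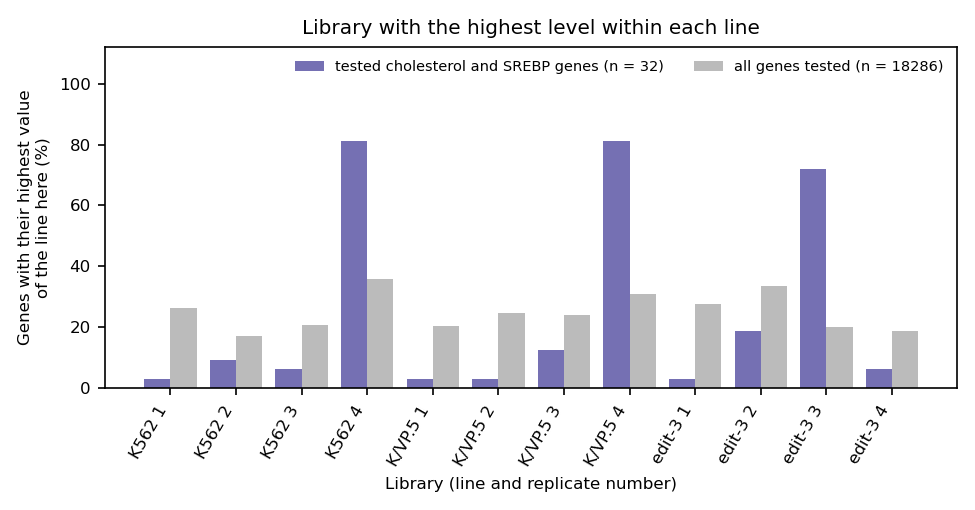
Share of genes (%) whose highest value within a line falls in each of the 12 libraries, for the 32 tested cholesterol and SREBP genes (purple) and all 18286 tested genes (grey). The purple bars reach 81.2%, 81.2% and 71.9% in K562 replicate 4, K/VP.5 replicate 4 and edit-3 replicate 3, above the grey bars at 35.9%, 30.8% and 20.1%.

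The resistant subline K/VP.5 was set against its parent. In edgeR's quasi-likelihood test, with p-values adjusted by Benjamini-Hochberg over all tested genes and 0.05 as the limit for a change, 7 of the 32 genes changed (21.9%), against 36.6% of all tested genes (18.3% higher and 18.3% lower). SQLE, NPC1 and FADS2 rose, while TM7SF2, NSDHL, DHCR7 and SREBF1 fell. The median log2 difference over the 32 genes was -0.08, against 0.0026 over all genes, and it turned to 0.14 without K562 replicate 4. None of the 8 mevalonate and isoprenoid enzymes passed. Of the 11 enzymes from squalene to cholesterol, 1 rose and 3 fell. The libraries of the 2 lines did not overlap for 5 of the 7 genes, and 32.9% of all genes both changed and did not overlap.

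**Figure D3:**
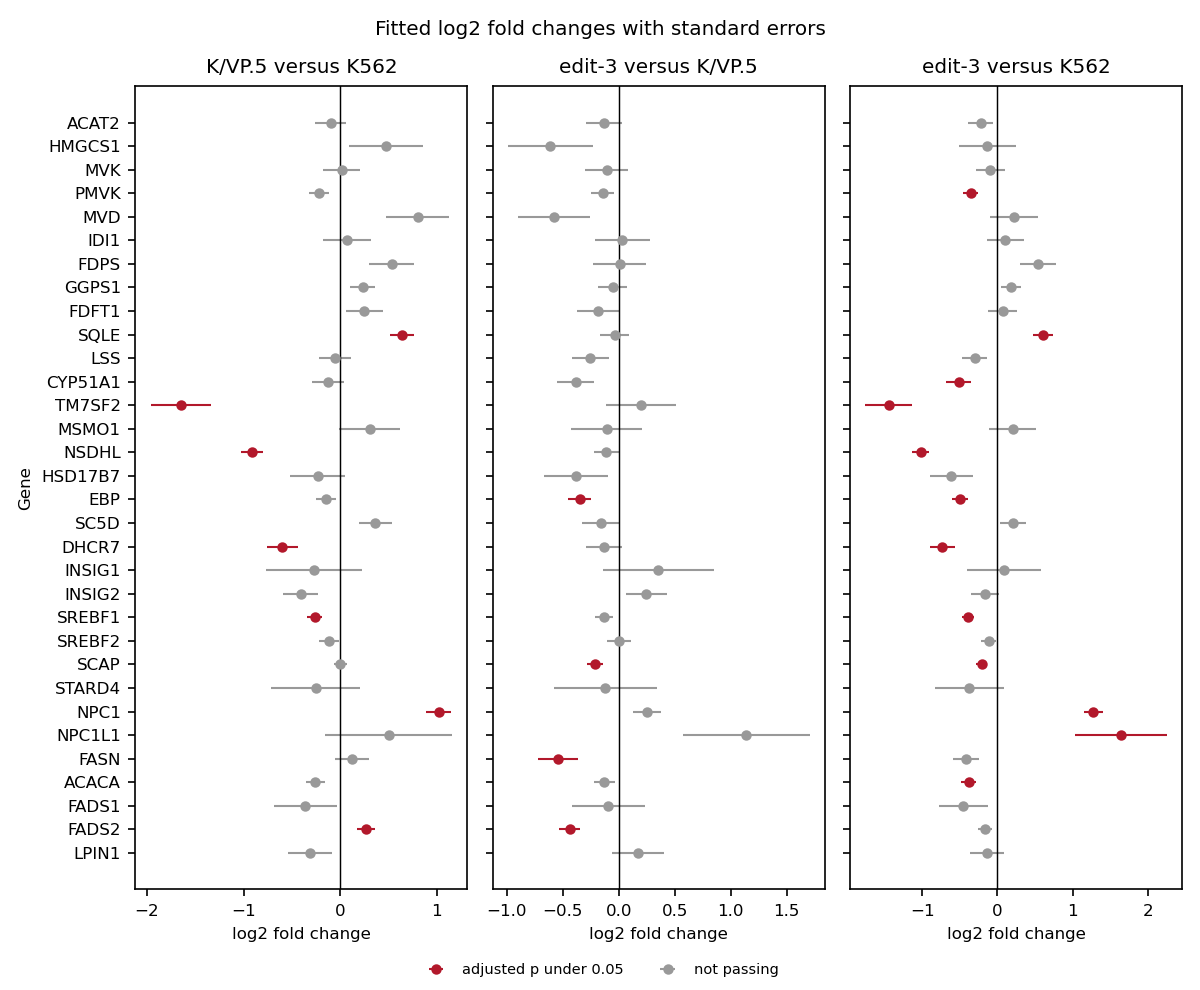
Fitted log2 fold changes (x axis) with standard errors (bars) of the 32 tested genes in the 3 comparisons, with red points for an adjusted p under 0.05 and grey points for the rest. TM7SF2 and NSDHL lie far to the left and NPC1 to the right in both comparisons with K562, while HMGCS1, INSIG1 and STARD4 have wide bars.

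SQLE (ENSG00000104549), the squalene epoxidase and a rate-controlling step of the pathway, was at 241, 275, 239 and 346 CPM in K562 and at 388, 393, 403 and 530 CPM in K/VP.5. Every K/VP.5 library was above every K562 library. The mean rose from 275 ± 49.9 to 428 ± 67.8 CPM (SD, n = 4), or by 0.64 on the log2 scale (SE 0.129, edgeR adjusted p = 0.0012). Later on the route, TM7SF2 (ENSG00000149809), a sterol reductase that acts after the removal of lanosterol's methyl group, stood at 20.5, 37.5, 19.9 and 51.5 CPM in K562. In K/VP.5 it was 8.05, 11.2, 9.39 and 12.6 CPM. Its log2 fold change was -1.65 (SE 0.313, edgeR adjusted p = 0.00126), the largest of the set in this comparison, and no library overlapped. The median of its 20 nearest tested neighbours on chromosome 11 was 0.06.

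NSDHL (ENSG00000147383), a dehydrogenase of the sterol demethylation complex, was at 61.1, 65.2, 63.1 and 84.5 CPM in K562 and at 35.3, 35.5, 34.1 and 40.8 CPM in K/VP.5. It fell to 0.533 of the K562 level, with no overlap (log2 -0.91, SE 0.113, edgeR adjusted p = 1.5e-05). Its 20 neighbours on chromosome X had a median log2 difference of -1.01, and 19 of them had its sign. DHCR7, which reduces the last double bond on the way to cholesterol, fell by 0.60 on the log2 scale (SE 0.161, edgeR adjusted p = 0.00997). Its range was 347 to 603 CPM in K562 and 240 to 351 CPM in K/VP.5, so the lines overlapped. The median of its neighbours on another stretch of chromosome 11 was -0.49, with 17 of 20 on the same side.

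NPC1 (ENSG00000141458), the protein that exports cholesterol from lysosomes, showed the largest rise of the 3. Its level was 41.7, 42.0, 42.4 and 56.6 CPM in K562, and 85.2, 81.1, 102 and 102 CPM in K/VP.5. All K/VP.5 libraries lay above all K562 libraries, at 2.03 times the level (log2 1.02, SE 0.130, edgeR adjusted p = 1.84e-05). The 20 neighbours of NPC1 on chromosome 18 had a median log2 difference of 1.18, with 15 on the same side, and the part of the region in the rise was not tested. FADS2, a desaturase of polyunsaturated fatty acids, rose by 0.27 (SE 0.0946, edgeR adjusted p = 0.0386), with overlap. That call was lost when any of 6 libraries was left out (replicates 1, 2 and 4 of K562 and 2, 3 and 4 of K/VP.5), with adjusted p up to 0.129. FADS2 shares 490 exon bases with FADS1 on the opposite strand, and FADS1 was at 680 CPM against 52.1 CPM for FADS2. Since the strand setting of the counting is not given, their reads may mix.

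Of the 5 regulators, SREBF1 passed the test between K562 and K/VP.5. SREBF1 (ENSG00000072310), the gene of SREBP-1, was at 274, 326, 318 and 284 CPM in K562 and at 226, 271, 239 and 264 CPM in K/VP.5. The lines did not overlap, and SREBF1 fell by 0.27 (SE 0.0805, edgeR adjusted p = 0.0175). The call ended without K/VP.5 replicate 1 or 3, or without replicate 2 or 3 of K562, with adjusted p up to 0.07. SREBF2 (ENSG00000198911) was at 274, 316, 290 and 360 CPM in K562 and at 255, 288, 286 and 312 CPM in K/VP.5, and its difference of -0.12 did not pass (SE 0.103, edgeR adjusted p = 0.403). SCAP (ENSG00000114650) was at 294, 303, 317 and 273 CPM against 287, 310, 321 and 272 CPM, a difference of 0.0020 (SE 0.0702). INSIG2 (ENSG00000125629), a close relative of INSIG1, was at 10.2, 10.6, 10.0 and 17.8 CPM in K562 and at 8.76, 7.97, 8.51 and 11.3 CPM in K/VP.5. Its difference of -0.41 did not pass with all 12 libraries in 1 fit (SE 0.184, edgeR adjusted p = 0.0993). INSIG1 differed by -0.27 (SE 0.497, edgeR adjusted p = 0.723).

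Between K562 and K/VP.5, deviations from the line means correlated at 0.31 for replicate number 1 and 0.51 for number 4. Numbers 2 and 3 reached only 0.15 and 0.14, below the 0.29 of K/VP.5 replicate 1 with K562 replicate 3. No label states a pairing. The comparison of K562 and K/VP.5 was also made within pairs of one number, a fit added after the data were seen. Its pairing was assumed from the same counts, and its p-values depend on that assumption. With the replicate number as a block and only these lines, 18 of 31 genes changed, 9 in each direction, against 50% of all 17397 genes in that fit. MVD, the decarboxylase that makes isopentenyl diphosphate, shows the difference from the unpaired fit. It was at 140, 235, 156 and 306 CPM in K562 and at 266, 345, 307 and 541 CPM in K/VP.5. The ratio within pairs was 1.89, 1.47, 1.97 and 1.77, so K/VP.5 was higher in 4 of 4 pairs, although the lines overlapped. The unpaired log2 difference was 0.80 (SE 0.322, edgeR adjusted p = 0.0772), and the paired one 0.83 (SE 0.0695, edgeR adjusted p = 1.92e-06). MVD's 20 neighbours on chromosome 16 had a median of 0.35 in the unpaired fit, with 16 on the same side.

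With MVD, 4 of the 8 mevalonate and isoprenoid enzymes passed in the paired fit, against 50% of all genes changed in either direction. All 4 were higher in K/VP.5. HMGCS1 was higher in K/VP.5 by ratios of 1.45, 1.14, 1.83 and 1.36 within pairs, a log2 difference of 0.52 (SE 0.103, paired edgeR adjusted p = 0.00457). FDPS, the farnesyl diphosphate synthase, had ratios of 1.55, 1.25, 1.68 and 1.404 and rose by 0.56 (SE 0.0687, paired edgeR adjusted p = 3.64e-05). GGPS1 rose by 0.26 (paired edgeR adjusted p = 0.0364) and was higher in 3 of 4 pairs. It shares 37.3% of its exon bases with TBCE on the same strand, so its count is uncertain. From squalene on, FDFT1 (0.28), SQLE (0.65) and SC5D (0.39) rose, while TM7SF2 (-1.56), NSDHL (-0.89), DHCR7 (-0.57) and EBP (-0.14) fell in the paired fit. Among the regulators, INSIG2 fell by 0.38 (paired edgeR adjusted p = 0.00977) and SREBF1 by 0.26, each lower in 4 of 4 pairs. NPC1 rose by 1.03. Among the lipid enzymes, FADS2 rose by 0.27, while ACACA (-0.24, lower in 3 of 4 pairs), FADS1 (-0.33) and LPIN1 (-0.28) fell.

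**Figure D4:**
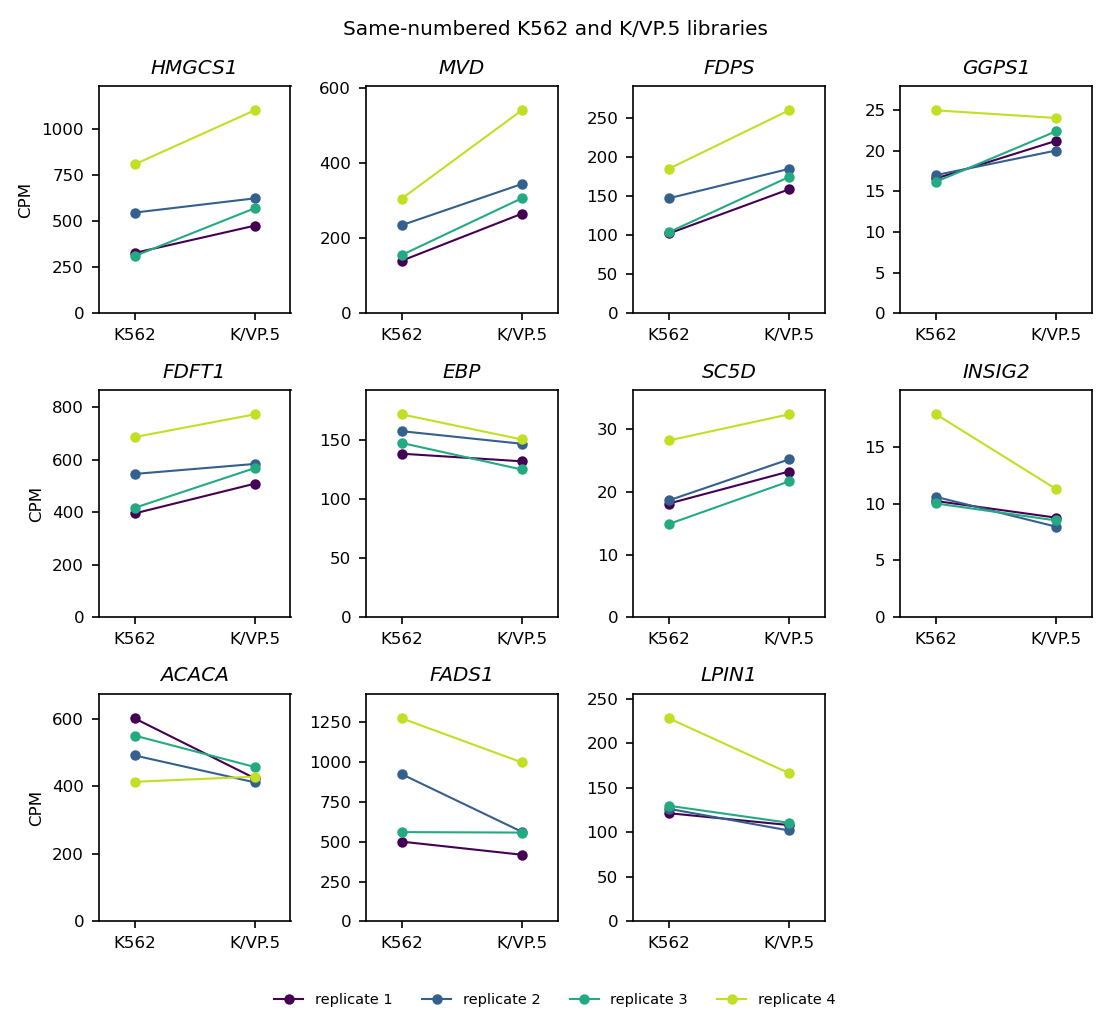
CPM (y axis, from 0) in K562 and K/VP.5 of the 11 genes that passed in the paired fit and not in the unpaired one, with lines joining libraries of the same replicate number. The lines for HMGCS1, MVD, FDPS, FDFT1 and SC5D all rise and those for EBP, INSIG2, FADS1 and LPIN1 all fall, while replicate 4 goes against the other 3 lines for GGPS1 and ACACA.

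All 4 pairs were higher in K/VP.5 for 8 of the 32 genes, against 29.3% of all tested genes, and all 4 lower for 10, against 28.8%. Adding the block to the fit of all 12 libraries gave 11 changed genes (5 higher and 6 lower), against 42% of all genes. Without K562 replicate 4 and K/VP.5 replicate 4, the libraries that stand apart in these genes, 9 of the 32 changed, against 32.1% of all genes. SQLE, NPC1, TM7SF2, NSDHL, DHCR7 and SREBF1 passed in that fit and FADS2 did not (adjusted p = 0.117). Without K562 replicate 4 alone the count was 11 of 32 (34.4%), against 35.1% of all genes, with MVD, FDPS, SC5D, GGPS1 and ACACA passing. NPC1L1 had too few reads for the paired fit, and the 13 remaining genes, from INSIG1 at -0.27 to MSMO1 at 0.31 in the unpaired fit, passed in neither.

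The edited clone was then set against the line it was made from. In edgeR's quasi-likelihood test, 4 of the 32 genes changed in edit-3 (12.5%), against 23.6% of all tested genes (12.9% higher and 10.6% lower). EBP, SCAP, FASN and FADS2 fell, and no gene rose. At an unadjusted p under 0.05, 0 genes were higher and 5 lower, against 18.4% and 16.2% of all genes. DESeq2 called 0 higher and 4 lower at its adjusted p, against 25.5% of all genes. With no filter on low counts, 2 of the 33 genes then tested passed, against 11.1% of all genes. FADS2 and SCAP both passed and did not overlap between the lines, which held for 21.0% of all genes. The median log2 difference of the 32 genes was -0.12, against 0.0041 over all genes.

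FADS2 (ENSG00000134824) was at 54.3, 59.4, 67.9 and 61.7 CPM in K/VP.5 and at 38.2, 48.8, 44.7 and 48.0 CPM in edit-3. The lines did not overlap, and the fall was 0.44 on the log2 scale (SE 0.0948, edgeR adjusted p = 0.00346); it was called whichever library was left out. SCAP was at 287, 310, 321 and 272 CPM in K/VP.5 and at 249, 270, 259 and 249 CPM in edit-3, again without overlap. It fell by 0.21 (SE 0.0703, edgeR adjusted p = 0.0404). The call was lost without K/VP.5 replicate 2 or 3 or edit-3 replicate 1, 3 or 4, with adjusted p up to 0.127, and with no filter on low counts (0.0728). The 20 neighbours of SCAP on chromosome 3 had a median of -0.22, and 16 were on the same side.

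FASN ran from 4588 to 7593 CPM in K/VP.5 and from 3420 to 5055 CPM in edit-3, with overlap. It fell by 0.54 (SE 0.177, edgeR adjusted p = 0.0449). Its call was lost without K562 replicate 3, K/VP.5 replicate 2, 3 or 4, or edit-3 replicate 1, 2 or 4, with adjusted p up to 0.121, and with no filter on low counts (also 0.121). EBP, the isomerase that shifts a sterol ring double bond, ran from 125 to 151 CPM in K/VP.5 and from 95.5 to 127 CPM in edit-3. It fell by 0.35 (SE 0.103, edgeR adjusted p = 0.0251), and leaving out K/VP.5 replicate 2 or 4 or edit-3 replicate 2 or 4 ended the call. In each of the fits without K/VP.5 replicate 2 and without edit-3 replicate 4, 1 of the 32 genes passed, against 18.7% and 18.6% of all genes.

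HMGCS1 and MVD, picked after their values were seen, had lower means in edit-3 than in K/VP.5, without passing. FDPS, with a higher mean in K/VP.5 than in K562 as well, did not, at 194 CPM in K/VP.5 and 196 CPM in edit-3. HMGCS1 had 692 ± 279 CPM in K/VP.5 and 454 ± 155 CPM in edit-3 (SD, n = 4), a log2 difference of -0.61 (SE 0.379, edgeR adjusted p = 0.291). MVD had 365 ± 122 and 244 ± 85.7 CPM, a difference of -0.58 (SE 0.321, edgeR adjusted p = 0.234). SQLE (-0.04), FDPS (0.01), NSDHL (-0.11), TM7SF2 (0.20) and DHCR7 (-0.13) had small differences that did not pass. Among the regulators, INSIG1 differed by 0.35, INSIG2 by 0.25, SREBF1 by -0.13 and SREBF2 by 0.0034, and none of these passed. INSIG2 was at 10.0, 9.48, 12.5 and 11.4 CPM in edit-3. SREBF1 was at 215, 220, 243 and 238 CPM there, and SREBF2 at 242, 322, 306 and 273 CPM.

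**Figure D5:**
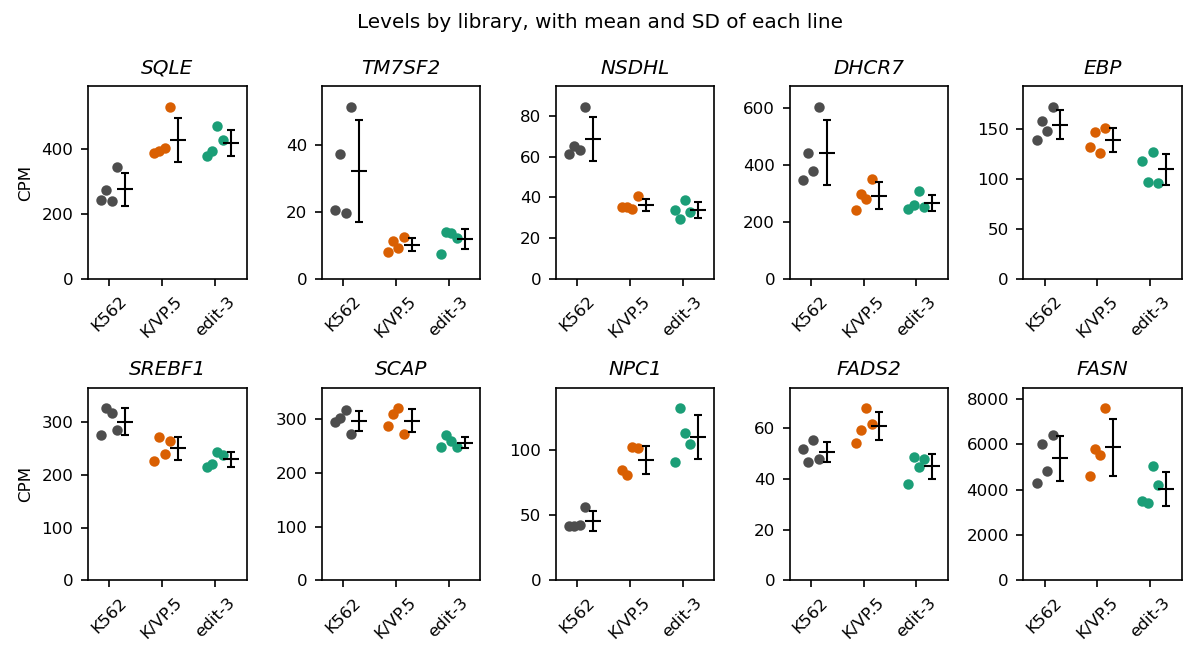
CPM by library (points) with the mean and SD (cross and bars, n = 4) in K562, K/VP.5 and edit-3 for 10 genes, each axis from 0. TM7SF2 and NSDHL sit high in K562 and low in both other lines, NPC1 and SQLE the other way, and FADS2 is highest in K/VP.5.

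Edit-3 was last compared with K562, which shares the libraries of both comparisons above and so adds no separate evidence. In edgeR's test, 12 of the 32 genes passed (37.5%), against 39.2% of all tested genes (20.6% higher and 18.6% lower). For 9 of the 12 the libraries did not overlap, and 32.1% of all genes met both conditions. SQLE and NPC1 rose, and PMVK, CYP51A1, TM7SF2, NSDHL, EBP, DHCR7, SREBF1, SCAP and ACACA fell. The remaining gene, NPC1L1, entered the test only through its reads in edit-3, where it is highest, so its call is given as a value and not read as a rise. Of the 11 enzymes from squalene to cholesterol, 1 rose and 5 fell. The median log2 difference was -0.17 over the 32 genes and 0.0045 over all genes, and without K562 replicate 4 that of the 32 was 0.017.

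SQLE was at 378, 394, 470 and 429 CPM in edit-3, above every K562 library, a log2 fold change of 0.60 (SE 0.129, edgeR adjusted p = 0.00172). NPC1 was at 91.2, 132, 113 and 104 CPM, 2.41 times the K562 level (log2 1.27, SE 0.130, edgeR adjusted p = 1.81e-06), and the median of its neighbours was 1.28. TM7SF2 was at 7.56, 14.0, 13.8 and 12.2 CPM, 0.367 of the K562 level (log2 -1.45, SE 0.311, edgeR adjusted p = 0.00272). NSDHL, at 33.9, 29.3, 39.0 and 33.1 CPM, was at 0.494 of the K562 level (edgeR adjusted p = 4.22e-06), beside a neighbour median of -1.27. For these 4 genes, the values of edit-3 overlapped those of K/VP.5 and not those of K562.

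DHCR7 was at 347, 439, 378 and 603 CPM in K562 and at 245, 258, 309 and 253 CPM in edit-3, with no overlap (log2 -0.73, SE 0.161, edgeR adjusted p = 0.00255). EBP was at 139, 158, 148 and 172 CPM in K562 and at 117, 97.0, 127 and 95.5 CPM in edit-3, also with no overlap (log2 -0.50, SE 0.104, edgeR adjusted p = 0.00138). PMVK, the phosphomevalonate kinase, was at 15.6, 17.1, 13.7 and 15.8 CPM in K562 and at 11.1, 12.05, 13.5 and 11.998 CPM in edit-3. It fell by 0.36 (SE 0.102, edgeR adjusted p = 0.0122), with the highest edit-3 library just under the lowest K562 library.

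Of the regulators, SREBF1 fell by 0.39 (SE 0.0806, edgeR adjusted p = 0.00118) and SCAP by 0.21 (SE 0.0703, edgeR adjusted p = 0.0275), each with every edit-3 library below every K562 library. The SCAP call was lost without K562 replicate 3 or edit-3 replicate 1 or 4, with adjusted p up to 0.084, and with no filter on low counts (0.0639). SREBF2 (-0.12), INSIG1 (0.09) and INSIG2 (-0.16) did not pass. ACACA fell by 0.38 (SE 0.0964, edgeR adjusted p = 0.00519) with overlap; its neighbours on chromosome 17 had a median of -0.48, and 18 of 20 were on the same side. CYP51A1, the lanosterol demethylase, fell by 0.51 (SE 0.166, edgeR adjusted p = 0.0241). That call was lost without K562 replicate 2 or 4 or edit-3 replicate 1, 2 or 4, with adjusted p up to 0.0647.

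NPC1L1 had 38 reads in K562, 64 in K/VP.5 and 131 in edit-3. Its libraries ran from 0.068 to 0.845 CPM in K562 and from 0.485 to 1.42 CPM in edit-3. The log2 difference was 1.64 (SE 0.610, edgeR adjusted p = 0.0485). The call was lost without any of 8 libraries (K562 replicate 1, 2 or 3, K/VP.5 replicate 2 or 3, edit-3 replicate 2, 3 or 4), with adjusted p up to 0.12, and with no filter on low counts (0.14). Without K562 replicate 4 the difference was 2.45. The other 20 genes did not pass. The widest differences among them were HSD17B7 at -0.62 (SE 0.285, edgeR adjusted p = 0.112) and FDPS at 0.54 (SE 0.235, edgeR adjusted p = 0.092).

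A further list of 58 genes covered SREBP processing and degradation, liver X receptors and their targets, fatty acid synthesis, sterol storage and lysosomal handling, and the isoprenoid branches, and 53 were tested. In K/VP.5 versus K562, 10 rose and 6 fell (30.2% against 36.6% of all genes). The 5 with the largest upward calls were SCD5, a desaturase (log2 4.25), ABCG8, a sterol efflux pump (1.08), ME1, the malic enzyme that supplies NADPH (0.66), LPIN2 (0.64) and NPC2, the lysosomal partner of NPC1 (0.54). SCD5 was at 0, 0.36, 0.07 and 0.16 CPM in K562, and its K/VP.5 libraries ran from 2.58 to 3.09 CPM. Without K562 replicate 2 its log2 difference was 5.25. Among the 6 that fell were MYLIP, a sterol-induced ubiquitin ligase (-1.12), SLC25A1, the citrate carrier (-0.53), MBTPS1, the first protease that cuts SREBPs (-0.47), and TMEM97 (-0.40). MYLIP was at 46.3, 70.6, 49.0 and 96.3 CPM in K562 and at 28.4, 32.05, 25.4 and 34.2 CPM in K/VP.5, without overlap. ABCG8, counted among the 10, stayed below 1 CPM throughout and passed the filter on low counts only through K/VP.5, where it was highest. It is therefore given as a value and not read as a rise. Its call was lost without K562 replicate 1 or 3 or without K/VP.5 replicate 4 (adjusted p up to 0.103), and without replicate 4 of both lines (0.0718). The NPC2 call was lost without any of 5 libraries (K562 replicate 1 or 3, K/VP.5 replicate 1, 2 or 4), with adjusted p up to 0.102.

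In edit-3 versus K/VP.5, 4 of the 53 rose and 5 fell (17.0% against 23.6% of all genes). SCD5 rose by a further 1.29, to between 5.61 and 7.86 CPM, and ACACB (0.97), PAQR3 (0.47) and ELOVL5 (0.36) also rose. ELOVL6, which elongates saturated fatty acids, was at 170, 163, 179 and 176 CPM in K/VP.5 and at 77.5, 97.2, 81.3 and 66.5 CPM in edit-3. It fell by 1.09 on the log2 scale (edgeR adjusted p = 9.41e-07), with no overlap. ME1 (-0.49), POR (-0.33) and SEC24A (-0.33) fell as well. ABCG8 (-1.14), counted among the 5, entered the test only through K/VP.5, where it was highest. It is therefore given as a value and not read as a fall. The ABCG8 call was lost without any of 5 libraries (K/VP.5 replicate 2 or 4, edit-3 replicate 2, 3 or 4), with adjusted p up to 0.0961, and that of SEC24A without replicate 3 of K/VP.5 or of edit-3 (up to 0.0708). Of the 16 tested genes of fatty acid synthesis on this list, 3 rose and 2 fell. In edit-3 versus K562, 10 of the 53 rose and 9 fell (35.8% against 39.2% of all genes), led by SCD5 (5.54, or 6.52 without K562 replicate 2) and PAQR3 (0.84) upward and by MYLIP (-1.10) and ELOVL6 (-1.05) downward. The others named by size were LPIN2 (0.83), NPC2 (0.80) and AGPAT2 (0.55), and TMEM97 (-0.66), SCD (-0.63, not passing with no filter on low counts, adjusted p = 0.0548) and MBTPS1 (-0.59).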

How the data were processed

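RNA sequencing covered K562, K/VP.5 and edit-3 with 4 libraries each, grouped by source name and numbered by title. The description field calls all 12 libraries parental, against the source names, and was not used. The authors deposited whole-number read counts for 58395 genes, not normalized. The submitters' processing notes name GRCh38, featureCounts, Subread 1.5.1 and HISAT2 2.1.0. Not given in the sources used here are the annotation release and how strand and multiply matching reads were handled, so genes that overlap or have near-identical copies are uncertain. Gene positions and exon lengths came from GENCODE release 29, and promoter windows from RefSeq on GRCh38.p14.

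In edgeR 4.0.16 (R 4.3.3), filterByExpr kept 18286 genes, holding 99.9% of reads. Models with 1 coefficient per line over all 12 libraries were tested by edgeR's robust quasi-likelihood test with TMM factors and Benjamini-Hochberg adjustment over all tested genes. A standard error (SE) is the fitted log2 fold change divided by the square root of F. Deviations are log2(CPM + 0.5) minus the mean of the line. The labels do not say that libraries came from separate cultures, so p-values measure only the spread between libraries, which may be technical. Between libraries of a line, chi-square per degree of freedom was 6.68 to 67.4, so none looked like a copy of another. Depth was 25.3 M to 37.1 M reads, and the floor of 3 reads covers counting error only.

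Deviations from the line means correlated between K562 and K/VP.5 libraries of one number, at 0.31, 0.15, 0.14 and 0.51. Libraries of different numbers correlated at -0.40 to 0.29. The highest of these, K/VP.5 replicate 1 with K562 replicate 3, was above the values for numbers 2 and 3. Pairing by number was thus assumed from the counts alone, and the paired p-values depend on it. The edit-3 libraries correlated at -0.11 to 0.47 with those of the same number and were not taken as paired. Number 1 reached 0.47 with K562 and 0.36 with K/VP.5, and number 4 reached 0.31 with each. Alternatives were DESeq2 1.42.0 and its size factors, no filter, a filter of at least 1 CPM in 4 libraries, only the 2 lines compared, the replicate block, and each library left out.

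The genes and lists were chosen with earlier results of these data known. Named with values in every library are the 5 regulators (SREBF1, SREBF2, SCAP, INSIG1 and INSIG2) and, per comparison, up to 10 other genes that passed without overlap between the lines. From the further list, up to 5 in each direction are named by size of change, and 1 gene is not reported here. HMGCS1, MVD, FDPS, STARD4, SCD and the genes of the paired fit were singled out after their values were seen. Scripts were tested on simulated data. In simulated counts for K/VP.5 versus K562, the unpaired fit recovered 25 of 100 genes changed by 0.5 on the log2 scale. It recovered 77 of 100 genes changed by 1, with 6 false calls. A gene that did not pass may therefore still differ.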

Additional observations from a re-analysis of the deposited data

Results flagged for a closer look

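For the 32 tested genes and 18 genes of the further list taken by size of change, 150 groups of 4 libraries were examined for 1 library far from the other 3, and 12 stood out. Chance gives such a gap in about 1 in 20 groups. K562 replicate 4 held 8 of the 12, always as the highest library. INSIG1 was at 1131 CPM there against 304 to 391 in the other K562 libraries, and STARD4 at 139 against 34.1 to 47.6 CPM. MSMO1, a sterol methyl oxidase, was at 150 against 64.8 to 77.9 CPM, and LPIN1, a phosphatidate phosphatase, at 228 against 122 to 130 CPM. INSIG2 was at 17.8 against 10.0 to 10.6 CPM, and NPC1 at 56.6 against 41.7 to 42.4 CPM. GGPS1, the geranylgeranyl diphosphate synthase, was at 24.9 against 16.2 to 17.0 CPM, and TMEM97 at 163 against 127 to 130 CPM.

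K/VP.5 replicate 4 held 3, also as the highest library. IDI1, the isopentenyl diphosphate isomerase, was at 188 against 107 to 111 CPM, SQLE at 530 against 388 to 403 CPM, and LPIN1 at 167 against 102 to 111 CPM. In K/VP.5 replicate 1, SCD5 was lowest, at 2.58 against 3.01 to 3.09 CPM. None of the edit-3 groups among these 150 stood out in this way, although edit-3 replicate 3 was the highest library for 23 of the 32 tested genes.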

How the results depend on the processing

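No named gene changed direction with a call under any alternative. In K/VP.5 versus K562, 7 genes of the set changed, where 36.6% of all tested genes did. The replicate block over all 12 libraries gave 11 (42% of all genes). The block with only the 2 lines compared gave 18 (50% of all genes), with 25 of the further list against 16 without it. Leaving out 1 library gave 5 to 11 for the set (11 without K562 replicate 4) and 13 to 19 for the further list. The count over all genes then ran from 5839 to 7221. In edit-3 versus K/VP.5, 4 genes changed (23.6% of all genes), and 2 with no filter on low counts (11.1%), where more genes are tested. Leaving out 1 library gave 1 to 4: 1 without K/VP.5 replicate 2 or edit-3 replicate 4, and 2 without K/VP.5 replicate 3 or edit-3 replicate 1 or 2. For the further list, 9 became 15 with the replicate block and ran from 8 to 14 with 1 library left out (14 without K562 replicate 4). Over all genes, leaving out 1 library gave 3388 to 4926. The share of all genes under the block is not given here for this comparison. In edit-3 versus K562, the set ran from 9 to 14 and the further list from 15 to 20 with 1 library left out, and all genes from 6478 to 7553. Other counts stayed within 1.5 times under the other alternatives. ACACA in K/VP.5 versus K562 (adjusted p = 0.0504) passed under 6 of 8 other settings. Across the set, the block over 12 libraries brought 6 of 96 values past the threshold and took none below it. Edit-3 numbers were not taken as paired, so its block values are given as values only. Low counts limit NPC1L1 and ABCA1, and the cause of each change was not tested.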
